A study of Homo sapiens with 3 samples.

Results

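The genes described here repair broken and crosslinked DNA: 46 genes of homologous recombination, end joining, the Fanconi anaemia pathway, mismatch repair and the checkpoints that answer to breaks. They were chosen by name and function, and all 46 were found in the table deposited by the authors, among 12582 genes in all, through 86 of its 19818 gene-matched transcripts. The table compares 1 library of SW480 cells, a line established from a human colon adenocarcinoma, carrying an shRNA against RBMS1 (shRBMS1) with 2 libraries of the same line carrying control shRNA (shControl). Total RNA was taken from both groups 48 hours after transduction and depleted of ribosomal RNA. RBMS1 is an RNA-binding protein with a preference for A+U-rich sites such as AUAUA. The labels read shRBMS1 and shControl and do not name the hairpins.

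Each value is a log2 fold change, shRBMS1 over shControl, so that 1 means 2-fold higher in shRBMS1 cells and −1 means 2-fold lower. The value of a gene was computed here as the median over its transcripts listed by the authors' deposited table, and with 1 transcript it is that transcript's own value. Levels in each library, and the depth behind them, were not analysed here. With 1 knockdown library there is no replicate check, so no value below has an error or a test, and a difference between genes or lists is a description of these libraries.

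Cells mend a double-strand break by copying the intact sister chromatid (homologous recombination) or by rejoining the ends (non-homologous end joining). The MRE11-RAD50-NBN complex and the kinases ATM and ATR detect the damage and signal through CHEK2 and CHEK1, which hold the cell cycle. Fanconi proteins unhook strands that are crosslinked to each other, and mismatch repair corrects errors of replication. Homologous recombination and mismatch repair act chiefly in replicating cells, and carcinoma lines in culture divide continuously.

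Most repair genes lay close to 0. The median over the 46 genes was 0.13, with a lowest gene value of −2.02 and a highest of 1.58, against a median of 0.01 over all genes. Of the 46, 33 lay above 0 and 13 below, that is 71.7% above 0 against 51.5% of all genes. Within 0.5 of 0 lay 39 of them, 84.8%, against 76.9% of all genes. Higher by at least 1 were FANCI and ATRIP, 2 of 46 or 4.35%, beside 3.95% of all genes, and lower by at least 1 was PMS1, 1 of 46 or 2.17%, beside 3.96% of all genes. These shares are near those of all genes, so counts past 2-fold do not set the repair genes apart. RBMS1 itself lay at −1.49, 35.6% of control, and its sign was used to fix the direction of the ratio.

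The 19 members with a single transcript in the table formed a narrow band. Their values ran from −0.66 to 0.22 with a median of 0.09, and 18 of the 19 (94.7%) lay within 0.5 of 0, against 80.2% of the 7985 single-transcript genes in the table. The members beyond 1 all had several transcripts, and in each of them the transcripts of the gene went opposite ways.

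**Figure D1:**
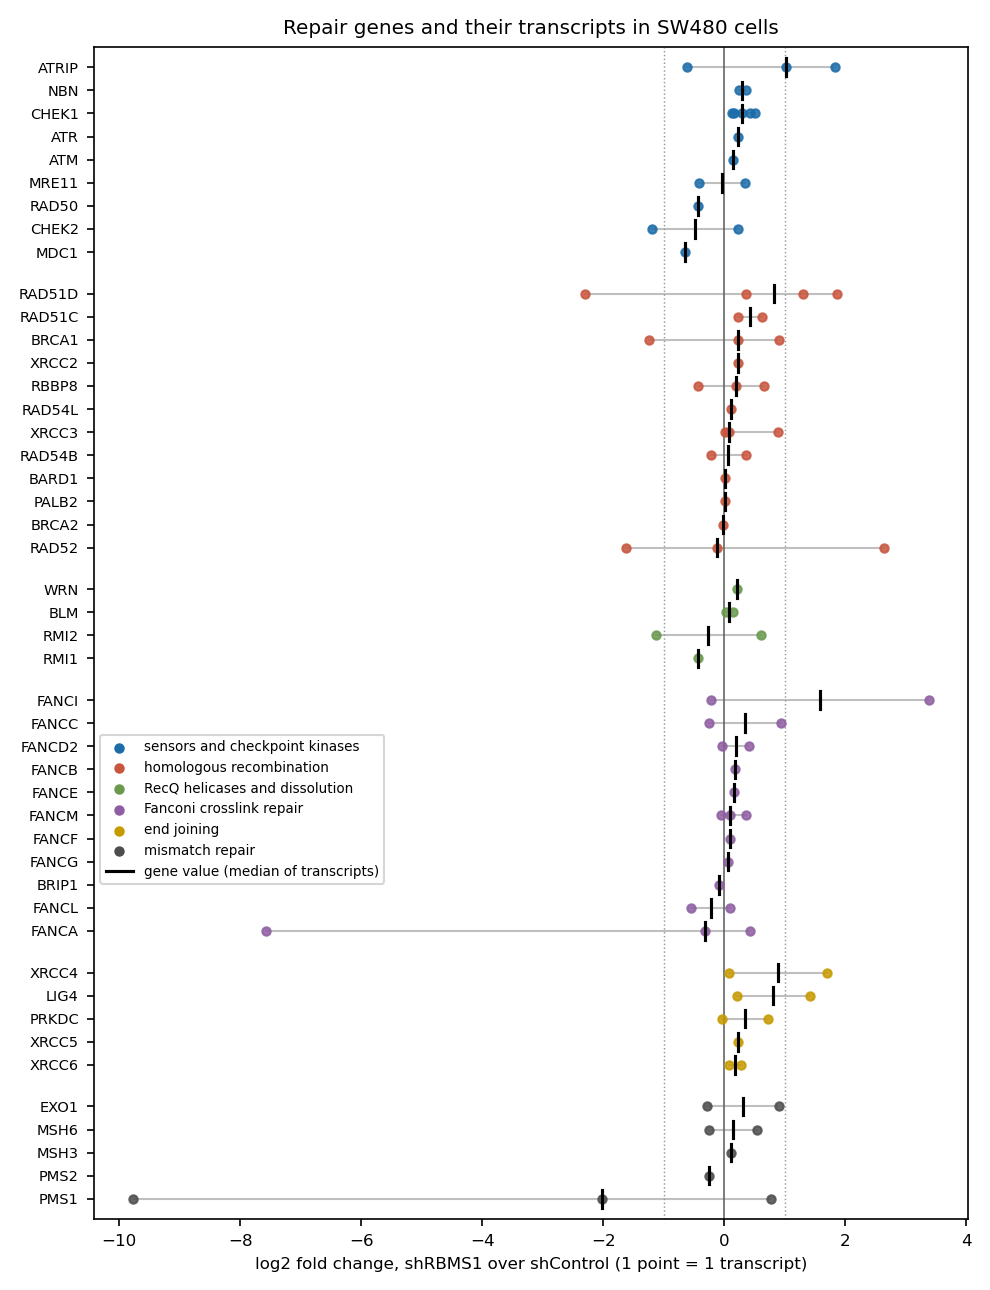
Log2 fold change of shRBMS1 over shControl for the 46 repair genes, grouped by role; each point is 1 transcript of the authors' deposited table, the black bar is the gene value (median of transcripts), and dotted lines mark −1 and 1. Gene values sit between −2.02 and 1.58, while single transcripts reach −9.77 for PMS1 and 3.38 for FANCI.

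Sequences that tell apart some transcripts of the 3 genes beyond 1 are shown first, because these genes' transcripts stand far apart. In FANCI the exon is absent from the transcript at 3.38, in PMS1 from the one at −9.77 alone, and in ATRIP from the one at 1.02 alone, so in PMS1 and ATRIP it does not part the transcripts above 0 from those below. Capitals mark a coding exon that one transcript holds and another lacks, and lower case marks 12 bases of the neighbouring exon on each side, 5′ to 3′. They are GENCODE 29 reference transcripts on hg38, all on the plus strand.
FANCI exon 24 of 38, chr15:89294915-89295094: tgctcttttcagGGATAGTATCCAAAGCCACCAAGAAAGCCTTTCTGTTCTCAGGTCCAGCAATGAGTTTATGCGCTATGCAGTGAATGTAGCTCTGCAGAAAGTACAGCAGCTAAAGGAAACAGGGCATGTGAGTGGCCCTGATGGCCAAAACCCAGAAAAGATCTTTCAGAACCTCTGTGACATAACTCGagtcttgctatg
PMS1 exon 3 of 13, chr2:189795769-189795951: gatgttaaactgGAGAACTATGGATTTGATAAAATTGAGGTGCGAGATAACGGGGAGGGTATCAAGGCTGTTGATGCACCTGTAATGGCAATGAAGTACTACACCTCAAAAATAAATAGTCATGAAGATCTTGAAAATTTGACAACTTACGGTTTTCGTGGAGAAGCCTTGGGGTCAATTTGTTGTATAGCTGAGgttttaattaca
ATRIP exon 11 of 13, chr3:48464582-48464662: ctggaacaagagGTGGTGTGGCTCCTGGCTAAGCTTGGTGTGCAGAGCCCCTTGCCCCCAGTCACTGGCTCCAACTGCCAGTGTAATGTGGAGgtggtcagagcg

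FANCI, which forms the clamp with FANCD2 that is ubiquitinated at crosslinks, had the highest gene value of the 46, at 1.58. That value is the midpoint of transcripts that stood apart. NM_018193, which lacks exon 24, was at 3.38 by the authors' deposited table, whereas NM_001113378, which holds it, was at −0.21, or 86.2% of control. The exon is 180 bases long, a whole number of codons, 60 in all, and its loss leaves 3804 of 3984 coding bases. Of the bases of NM_018193, 96.8% are shared with the other transcript, so most reads of either one could come from both, and the sources used here do not give how reads were divided between them. FANCD2, the partner, had transcripts of −0.04 and 0.41 by the authors' deposited table.

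PMS1, a mismatch repair protein of the MutL family, had the lowest gene value, at −2.02. The full transcript NM_000534, which encodes all 2796 coding bases, was on the other side of 0, at 0.77 by the authors' deposited table. NM_001128143 has 2679 coding bases, all of them shared with NM_000534, and stood at −2.02 by the authors' deposited table. NM_001289409 starts farther upstream, lacks exons 3 and 4, of 183 and 103 bases, and has 2268 coding bases. It stood at −9.77, near the lower end of the authors' deposited table, whose lowest value is −9.99. A fold change of that size has no level beside it, so whether this transcript was abundant in any library is unknown.

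ATRIP, the partner that brings ATR to single-stranded DNA, had a gene value of 1.02. Its transcripts NM_001271023 and NM_032166 were at 1.83 and 1.02 by the authors' deposited table, while the longest, NM_130384, was at −0.61. NM_032166 lacks exon 11, of 81 bases or 27 codons, which both other transcripts hold, so the exon does not separate the higher from the lower ones. NM_130384 ends in a long untranslated stretch that shares 1471 exon bases with TREX1, a DNA exonuclease gene on the same strand, which stood at 0.45. Reads from that stretch cannot be assigned to either gene alone.

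Sensors and checkpoint kinases had a median gene value of 0.15 over 9 genes, with 5 above 0. The 2 kinases that start the signal were close to each other: ATM, which answers to double-strand breaks, was at 0.15, and ATR, which answers to single-stranded DNA, at 0.22. CHEK1, the kinase downstream of ATR, was at 0.30, and its 5 transcripts all lay above 0, between 0.13 and 0.51 by the authors' deposited table. CHEK2, the kinase downstream of ATM, was at −0.49 as a gene. Its shorter transcript NM_007194 was at 0.22, and NM_001005735, which holds a further in-frame exon of 129 bases, was at −1.20 by the authors' deposited table. The 3 subunits of the break sensor did not share a sign. RAD50, the ATPase of the complex, was at −0.43 or 74.0% of control, the nuclease MRE11 at −0.04 and the adaptor NBN at 0.30. For NBN the transcripts stood together, at 0.24 and 0.36, whereas those of MRE11 stood at −0.42 and 0.34 by the authors' deposited table. MDC1, the scaffold that reads phosphorylated H2AX at a break, was the lowest single-transcript member, at −0.66 or 63.3% of control.

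Homologous recombination genes had a median of 0.09 over 12 genes, with 10 above 0 and none beyond 1. BRCA2, a tumour suppressor central to recombination, was at −0.02, and PALB2, which ties it to BRCA1, at 0.00. BARD1, the obligate partner of BRCA1, was at 0.01. For these 3 genes the libraries differed by under 2% of control, on 1 transcript each. RAD54L, a DNA motor of recombination, was at 0.12 and its relative RAD54B at 0.06. BRCA1, at 0.22 as a gene, had transcripts at −1.24, 0.22 and 0.91 by the authors' deposited table. The lowest of them, NM_007297, lacks the coding exon of 54 bases that is exon 3 in NM_007294, while NM_007300, the highest, holds a further exon of 66 bases. RBBP8, which encodes the resection factor CtIP, had transcripts from −0.44 to 0.65 by the authors' deposited table around a gene value of 0.20.

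A family of related recombination mediators was mostly a little above 0: XRCC2 at 0.22, XRCC3 at 0.07 and RAD51C at 0.42. RAD51C joins a coding transcript at 0.22 with a non-coding one at 0.62 by the authors' deposited table. RAD51D stood higher as a gene, at 0.82, and its 4 transcripts ran from −2.30 to 1.86 by the authors' deposited table. Its coding transcripts stood at −2.30, 0.35 and 1.30, and the highest, NR_037711, is non-coding. The lowest, NM_002878, is 9988 bases long with a 3′ untranslated region (3′ UTR) of 8745 bases. All 1353 bases of NM_133629, at 0.35, lie within NM_002878 and make up 13.5% of it, so reads from them could come from both. RAD52, which anneals single strands, had a gene value of −0.12 with transcripts at −1.62, −0.12 and 2.64 by the authors' deposited table. By the GENCODE transcripts linked to them, all 3 hold the same 1254 coding bases. The transcripts at −1.62 and −0.12 link to the same GENCODE transcript, so how they differ is not seen here.

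The RecQ helicases and the dissolution complex, which take recombination intermediates apart, had a median of −0.09 over 4 genes. BLM and WRN, the helicases lost in Bloom and Werner syndromes, were at 0.08 and 0.21, and the BLM transcripts lay at 0.02 and 0.14 by the authors' deposited table. The partners of BLM lay on the other side of 0: RMI1 at −0.43 and RMI2 at −0.26. RMI2 joins a coding transcript at −1.13 with a non-coding one at 0.60 by the authors' deposited table, so its only coding transcript there was 45.8% of control.

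Fanconi genes had a median of 0.10 over 11 genes, with 8 above 0. Most of the core complex, the ubiquitin ligase that marks FANCI and FANCD2, was near 0: FANCB stood at 0.18, FANCE at 0.15, FANCF at 0.09 and FANCG at 0.05, each on 1 transcript. FANCM, the motor that docks the core complex on DNA, was at 0.10, with 3 transcripts between −0.05 and 0.35 by the authors' deposited table. FANCL, the catalytic subunit, was at −0.22, with transcripts at −0.55 and 0.10 by the authors' deposited table. FANCC was at 0.34, from transcripts at −0.25 and 0.94 by the authors' deposited table that end in different exons. FANCA had a gene value of −0.32, yet its full-length transcript NM_000135 was at 0.42 and NM_001286167 at −7.57 by the authors' deposited table. Of the 4272 coding bases of NM_001286167, 4268 are also in NM_000135, so near copies stand far apart. BRIP1, the helicase also called FANCJ, was at −0.09.

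End-joining genes were the only role group with no gene below 0 by the median of transcripts. XRCC5 and XRCC6, which encode the Ku80 and Ku70 subunits that cap a broken end, were at 0.22 and 0.17, PRKDC, the kinase Ku recruits, at 0.34, XRCC4, the scaffold of the final ligase, at 0.88, and LIG4, that ligase, at 0.81. The median of the 5 was 0.34. The larger values come from 1 transcript of 2 in each gene. XRCC4 had NM_022550 at 1.69 and NM_022406 at 0.08 by the authors' deposited table, and the pair differ by 6 of 1008 coding bases. LIG4 had NM_001098268 at 1.42 and NM_206937 at 0.20 by the authors' deposited table, with the same 2733 coding bases in both. With the transcript of smallest change for each gene the group's median was 0.0775, and PRKDC then stood at −0.04. The 17 end-joining genes of the wider list described below had a median of −0.01, with 9 below 0 and 8 above.

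Mismatch repair genes had a median of 0.10 over 5 genes. MSH3 and MSH6, the subunits that set which mismatches are recognised, were at 0.10 and 0.14. The transcripts of MSH6 stood at −0.26 and 0.54 by the authors' deposited table, and 1644 of their exon bases are shared with FBXO11 on the opposite strand, which stood at −0.50. PMS2, an endonuclease of mismatch repair, was at −0.25 on 1 transcript, and GENCODE 29 lists 11 pseudogenes named after it, among which reads can be hard to divide. The same limit holds for MRE11, CHEK2, RBBP8, FANCD2 and XRCC6, as 6 members have 23 such pseudogenes in all. EXO1, the exonuclease of both mismatch repair and resection, was at 0.31, with transcripts at −0.28 and 0.90 by the authors' deposited table that encode the same 2538 coding bases.

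Transcripts of 1 gene often stood apart. Among the 27 members with several transcripts, 14 (51.9%) had a gap of more than 1 between their highest and lowest, beside 49.3% of the 4597 such genes in the table, and the median range was 1.08 against 0.98 for all of them. In 19 of the 27 (70.4%) the transcripts lay on both sides of 0, against 66.5% of all genes with several. Of the 86 member transcripts, 8 (9.3%) were lower by at least 1, beside 7.86% of all matched transcripts, and 8 (9.3%) were higher by at least 1, beside 8.26% of all. These 16 belong to 11 genes, and RAD51D and RAD52 hold transcripts beyond 1 in both directions. The repair genes thus split by transcript about as often as any gene in the table. By the GENCODE transcripts linked to them, the highest and lowest transcripts differ in coding bases in 11 of the 14 genes. In RAD52, LIG4 and EXO1 they do not. Members whose several transcripts all lay within 0.5 of 0 numbered 7, MRE11, NBN, BLM, FANCM, FANCD2, XRCC6 and RAD54B.

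**Figure D2:**
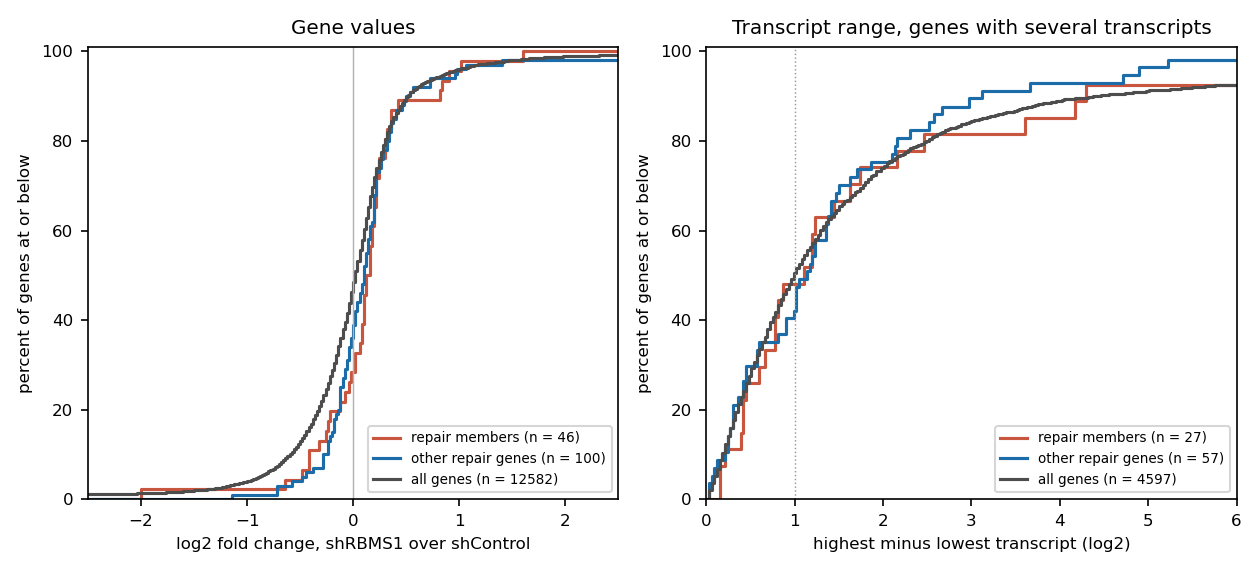
Cumulative percent of genes at or below each value for the 46 repair members, 100 other repair genes and all 12582 genes: gene values in log2 on the left, shown from −2.5 to 2.5, and on the right the highest minus the lowest transcript for genes with several transcripts, shown to 6. On the left the repair curves lie to the right of the curve for all genes around 0, with medians of 0.13, 0.09 and 0.01, and on the right the curves run close together.

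How far a member's value depends on which transcript stands for it was seen by taking 1 value per gene in other ways. Of the 46 members, 14 moved by at least 0.58 under some way, and all 14 have several transcripts, as genes with 1 transcript keep their value by construction. The share of all genes that moved so was not taken, so the count does not set the members apart. ATRIP lay at −0.61 by its longest transcript, FANCI at −0.21, and PMS1 at 0.77 by the transcript of smallest change, each on the other side of 0 from its gene value. By the transcript linked to GENCODE's principal isoform, a way added after seeing the data, 3 members were lower by at least 1 (6.52%, beside 5.15% of all genes) and 2 were higher (4.35%, beside 4.25%), shares near those of all genes. The lower were RAD51D, RMI2 and RAD52 and the higher FANCI and LIG4. For RAD52 and LIG4 several transcripts are so linked, and the best-ranked tag, then the longest, then the first identifier was taken. The others so linked stand at −0.12 and 2.64 for RAD52 and at 0.20 for LIG4, which ends the call of both and turns the direction of RAD52.

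**Figure D3:**
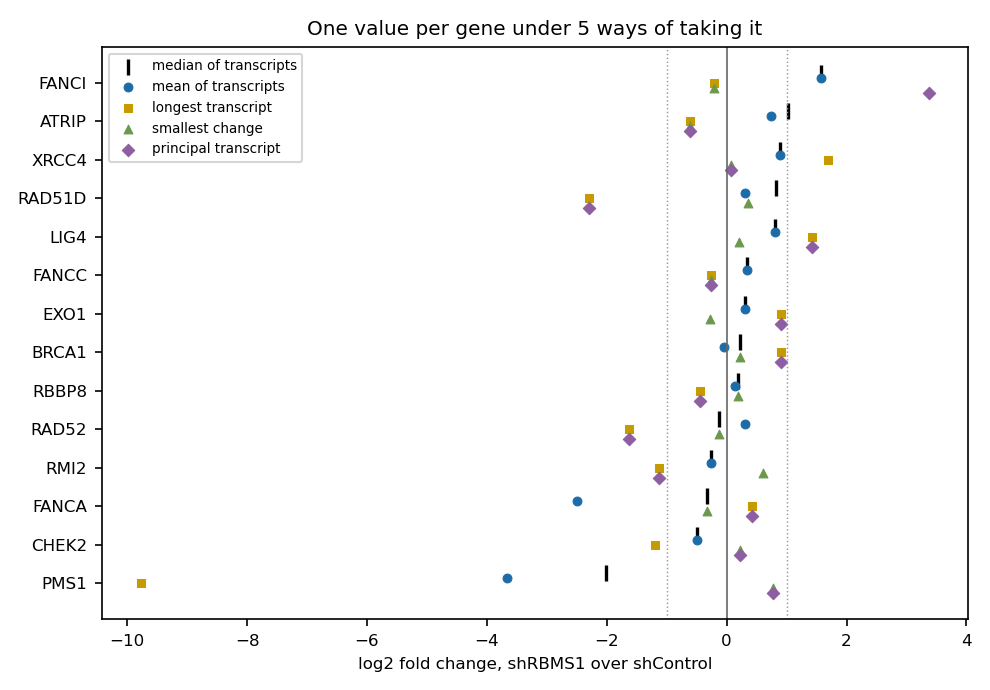
Log2 fold change of shRBMS1 over shControl for the 14 repair genes whose value moved by at least 0.58, each taken as the median, the mean, the longest transcript, the transcript of smallest change and the principal transcript; dotted lines mark −1 and 1. FANCI runs from −0.21 to 3.38 and PMS1 from −9.77 to 0.77 by way of taking the value.

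A wider list of 106 repair and checkpoint genes chosen by function, 100 of them measured, had a similar overall median, though its end-joining genes lay on both sides of 0. Its median was 0.09, 61 genes lay above 0 and 39 below, and 86 lay within 0.5 of 0. Of all genes, 51.5% lay above 0 and 76.9% within 0.5 of it. Higher by at least 1 were 4 of the 100, a share near the 3.95% of all genes. Among them were the checkpoint mediator CLSPN at 4.29 and the BRCA1-A complex subunit BABAM2 at 1.40, with transcripts from −0.28 to 2.01. Lower by at least 1 was 1 of the 100, the polymerase subunit POLD4 at −1.15, beside 3.96% of all genes. The coding transcript of POLD4, NM_021173, stood at −0.65 and the non-coding NR_046413 at −1.64. Next lowest were the end-joining polymerase POLM at −0.74 and TP53BP1, which favours end joining over resection, at −0.73. The highest gene of the wider list was split by transcript too. CLSPN joins NM_001190481 at 8.74 with NM_022111 at −0.15 by the authors' deposited table. All 43 of the wider list with a single transcript lay within 0.5 of 0, from −0.48 to 0.38, against 80.2% of all single-transcript genes.

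Repair transcripts are long and rich in A+T. By the longest transcript of each gene, the members' median length was 4079 bases against 2959 for all genes, their median GC content was 42.1% against 49.0%, and their median number of exons was 15 against 9. The sequence ATATA, the DNA form of the AUAUA that RBMS1 binds, was found in the longest annotated 3′ UTR of 35 of the 46 members (76.1%), against 62.0% of 11284 genes with a 3′ UTR. Their 3′ UTRs are not longer than usual, with a median of 1137 bases against 1373, but held 2.42 sites per 1000 bases against 1.77. Sites were counted on the sense strand alone, and each overlapping start was counted as a site of its own. Of the members' 174 sites 43 are in RAD51D, and without it, a check added after seeing the data, the members held 2.08 per 1000 bases. The wider list had a site in 63.0% of 92 genes and held 1.45 per 1000 bases, below all genes. Members with a site had a median of 0.14 and the 11 without one a median of 0.12, and over all genes these medians were 0.02 and −0.01. By gene value, then, repair genes with the sequence did not lie lower than those without it. A gene value is a median over transcripts, and these need not carry the longest annotated 3′ UTR in which sites were counted. Whether the transcripts that carry the sequence lay lower was not tested.

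The sites of the lowest single-transcript members are shown beside that of RBMS1 itself, with ATATA in capitals and 10 bases on each side, 5′ to 3′ in the sense of the transcript, from GENCODE 29 on hg38. RAD50 holds 8 such sites, of which the first is shown, RMI1 holds 1 and MDC1 none.
RAD50, plus strand, chr5:132642448-132642472: caataagaaaATATAttctttcaaa
RMI1, plus strand, chr9:84003876-84003900: ttagctgtacATATAagccttcctt
RBMS1, minus strand, chr2:160273132-160273156: actttagtacATATAagataattca
MRE11, whose gene value was −0.04, also holds 8 sites, in the 3′ UTR of its transcript NM_005591, which stood at 0.34. RAD51D, at 0.82 as a gene, holds 43 in the 3′ UTR of its transcript NM_002878, which stood at −2.30. Most of the 43 are neighbouring or overlapping starts within an AT and AC repeat between positions 3401 and 3523 of that 3′ UTR, not separate sites.

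Of the markers of colon epithelium looked for, 10 of 12 had a row in the table deposited by the authors, EPCAM, CDH1 and CDX2 among them, and KRT20 and CDX1 had none. Of leukocyte markers 2 of 7 had a row, CD68 and LYZ, and of fibroblast and endothelial markers 0 of 6 and 0 of 5. A row says nothing of a gene's level.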

How the data were processed

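Total RNA-seq of SW480 cells was compared between 1 shRBMS1 and 2 shControl libraries, grouped by the shRNA in the labels. The authors' deposited table holds 1 log2 fold change for each of 20104 RefSeq transcripts; hg38, STAR 2.5, Cufflinks and Cuffdiff are named, per the submitters' processing notes, without roles or settings. The sources used here do not give filters, strand handling or how reads were divided between transcripts. The header names neither base nor direction. Base 2 follows from spacing: 20 transcripts lay 1 from a value repeated in 3 or more transcripts, within 1.5e-05, against 4 at ln 2 and 5 at log10 of 2. The direction rests on RBMS1 lying below 0, so every sign would turn with it.

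Gene names came from RefSeq on GRCh38.p14, the assembly of hg38, and matched 98.6% of transcripts; 286 were left out. GENCODE 29, also GRCh38, gave exons, coding parts, principal isoforms and 3′ UTRs through its RefSeq links. These hold 85 of the 86 member transcripts. Several RefSeq transcripts can link to 1 GENCODE transcript, and the coding bases given are those of the linked one. A size of 1 on the log2 scale was counted without a test. All members were named; of the wider list, those beyond 1 and the 3 highest and lowest, apart from items not reported here. Members and lists were chosen with earlier results of these data known. Gene values and counts were tested on simulated data with known shifts. Each gene's transcripts shared its shift there, so genes whose transcripts go opposite ways were not tried. Python 3.11.15, pandas 2.3.3 and numpy 2.4.6 were used.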

Additional observations from a re-analysis of the deposited data

How the results depend on the processing

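No paired analysis was possible because the table holds 1 value per transcript and 1 knockdown library. The depth behind each value is unknown. The members' median, that of the wider list and that of homologous recombination genes moved by less than 0.1 under every way of taking 1 value per gene that was tried, and with centring on the median of all genes. Counts of members lower by at least 1, which was 1, came to 2 with the mean, 5 with the longest transcript, 0 with the transcript of smallest change, 2 with coding transcripts alone, 0 among genes with 1 transcript, 3 with the principal transcript and 2 at a size of 0.58. Those higher by at least 1, which was 2, came to 1 with the mean, 0 with the smallest change, 0 among genes with 1 transcript, 5 at a size of 0.58 and 1 at 1.5. Among all genes, 3.96% were lower and 3.95% higher by the median, and 5.15% and 4.25% by the principal transcript. Shares of all genes under the other settings were not taken, so those counts have nothing to be judged against. Members below 0, 13 by the median, came to 18 with the longest transcript, 17 with the smallest change and 15 with centring. With the principal transcript they came to 14, and 6 of the 19 genes with 1 transcript lay below 0. Medians of 4 of the 6 roles changed sign: sensors stood at −0.14 among genes with 1 transcript, and RecQ and dissolution genes at 0.11, Fanconi genes at −0.038 and mismatch repair genes at −0.25 with the smallest change. End-joining genes stood at 0.0775 with the smallest change, and neither they nor homologous recombination genes changed sign. The longest transcript gave 0.22 for end joining and −0.25 for mismatch repair, the principal transcript 0.0775 for end joining, and genes with 1 transcript 0.22 and −0.0758 for end joining and mismatch repair. Members with transcripts more than 2 apart numbered 7, and the share of all genes at that distance was not taken. ATRIP lay at −0.61 by the longest, smallest-change and principal transcripts, FANCI at −0.21 by the longest and smallest-change ones, and PMS1 at 0.77 by the smallest-change and principal ones. These values follow from which transcript is kept.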

Other observations

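Several repair genes start head to head with a neighbour on the other strand, within 1000 bases between RefSeq start sites. Of the 39 members with an entry in the promoter table, 13 had such a neighbour measured, per the authors' deposited table, and 12 of the 13 neighbours lay within 0.5 of 0. NPAT, the histone gene regulator beside ATM, stood at −0.10 with ATM at 0.15, and NBR1 at −0.14 with BRCA1 at 0.22. HSCB, an iron-sulphur cochaperone beside CHEK2, was at 0.27 with CHEK2 at −0.49, and ORMDL1 was at 0.23 with PMS1 at −2.02. The member and its neighbour lay on the same side of 0 in 5 of the 13 pairs. DCTN5, a dynactin subunit beside PALB2, was the 1 neighbour beyond 1, at 1.72, from transcripts at 0.13 and 3.30 by the authors' deposited table, while PALB2 stood at 0.00.

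Exon bases were shared with another measured gene in 9 members. Beside TREX1 and FBXO11 these genes were FSBP at 1.65 with RAD54B, VRK2 at 1.21 with FANCL, ZNF276 at 0.81 with FANCA, POLG at −0.10 with FANCI, ANKRD49 at 0.13 with MRE11, LRRC41 at 0.06 with RAD54L and ORMDL1 with PMS1. FSBP lies on the strand of RAD54B and shares 710 bases with its transcript NM_001205262 alone, which stood at −0.23 by the authors' deposited table.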
